A study of Mus musculus with 148 samples.

Results

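Mac Isg20 cells were one of the macrophage subpopulations of a mouse model of spontaneous breast cancer lung metastasis. They were the wells that the deposited cell table assigned to the label Mac_Isg20, named for the interferon-induced exonuclease gene Isg20. The label held 494 of 23425 annotated immune cells (2.11%) and 27.6% of the 1791 macrophages. The cells came from 40 of 63 samples, a sample being 1 tissue of 1 mouse, and from 18 of 27 mice. EO771 cells, a mouse mammary tumor line carrying tdTomato, had been injected into the mammary gland of female C57BL/6 mice that express photoactivatable GFP (PA-GFP), at 8 weeks of age, and the tumors were removed 3 weeks later. Normal samples were lungs of control mice without tumor cells, Pre-MET samples were lungs of mice that still carried the primary tumor, Relapse-free samples were lungs of mice in which no metastasis appeared, and Primary samples were EO771 tumors. Mice with lung lesions gave MET samples, sections that held a metastasis, and Distal normal tissue, sections without tdTomato signal. MET Core and MET Invasive margin samples were cells labelled by light in the center or at the border of a lesion. All mice shared the PA-GFP strain. The model uses 1 tumor line in 1 sex, and lesions were taken as early as they were seen. Live CD31- cells were sorted as CD45+ from unlabelled tissue, while the light-labelled samples were sorted as GFP+, mostly without a CD45 gate.

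Type I interferons are released when cells sense viral or misplaced nucleic acid, and they act through the receptor IFNAR and a complex of transcription factors that binds the interferon-stimulated response element in promoters of genes such as Rsad2 (the antiviral enzyme viperin), Ifit3, Isg15 and Cxcl10. Tumors are known to hold macrophages that express such genes, often beside CC chemokines that attract monocytes. Arg1, the third gene linked with the label, encodes arginase, which breaks down arginine and is used as a mark of suppressive myeloid cells.

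The promoters of 4 of the type I interferon response genes followed below are shown as examples. Each is the 250 bases upstream of the transcription start in the RefSeq annotation of GRCm38.p6, 5′ to 3′ on the strand of the gene. Capitals mark GAAANNGAAA, the spaced repeat of the interferon-stimulated response element, on either strand. On the minus strand lie Rsad2 (chr12:26456453-26456702), Cxcl10 (chr5:92348890-92349139) and Isg15 (chr4:156200819-156201068), and on the plus strand lies Ifit3 (chr19:34583279-34583528).
Rsad2: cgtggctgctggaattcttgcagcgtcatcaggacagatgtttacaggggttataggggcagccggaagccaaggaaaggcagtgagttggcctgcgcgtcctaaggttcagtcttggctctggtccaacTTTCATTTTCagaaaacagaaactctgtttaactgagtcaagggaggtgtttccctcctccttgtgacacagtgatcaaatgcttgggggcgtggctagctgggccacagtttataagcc
Cxcl10: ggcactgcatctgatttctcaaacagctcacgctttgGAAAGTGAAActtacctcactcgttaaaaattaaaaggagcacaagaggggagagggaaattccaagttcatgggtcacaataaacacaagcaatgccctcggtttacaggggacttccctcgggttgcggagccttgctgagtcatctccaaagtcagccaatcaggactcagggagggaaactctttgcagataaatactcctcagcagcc
Ifit3: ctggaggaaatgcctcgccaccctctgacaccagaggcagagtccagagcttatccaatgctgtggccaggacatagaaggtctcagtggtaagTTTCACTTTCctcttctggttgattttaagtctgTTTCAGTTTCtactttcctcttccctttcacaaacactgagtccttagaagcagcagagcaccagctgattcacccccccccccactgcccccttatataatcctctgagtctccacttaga
Isg15: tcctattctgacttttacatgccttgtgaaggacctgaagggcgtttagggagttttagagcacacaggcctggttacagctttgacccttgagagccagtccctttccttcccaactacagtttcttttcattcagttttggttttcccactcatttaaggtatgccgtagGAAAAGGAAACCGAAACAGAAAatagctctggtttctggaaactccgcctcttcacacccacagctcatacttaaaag
The match started 120 bases upstream of the start in Rsad2, 213 in Cxcl10, and 156 and 122 in Ifit3. In Isg15 3 overlapping matches began 78, 72 and 66 bases upstream. In windows of 300 bases, which reach 50 bases past the start, the repeat was present in 3.44% of the 32851 promoters of the table and in 1079 of its 27025 genes (3.99%). Of the 48 type I interferon response genes followed here, 37 had a promoter in the table and 19 of these (51.4%) held it. For the interferon-gamma GTPases, such as Irgm1 and Gbp2, which act in cell-autonomous defense, this was 8 of 9 genes (88.9%). Among the chemokines it was Cxcl10 alone of 12, and no promoter of 5 MHC class II genes held it. Isg20 itself (chr7:78913424-78920396, plus strand, mm10) had no match. These are matches of letters and not measured binding.

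Depth set what could be seen in single cells. A Mac Isg20 cell held a median of 1333.5 UMIs (unique molecular identifiers, 1 for each captured RNA molecule) and 592 genes, and 321 cells had 1000 or more UMIs. Empty wells (592) had a median of 8 UMIs and at most 236. For expression, the cells of 1 sample were summed and scaled to counts per 1000000 UMIs (CPM). In 15 samples from 11 mice, 8 MET and 7 MET Core, 10 or more cells were present, and their sums ranged from 14826 to 168689 UMIs, so that a single UMI stood for 5.93 to 67.4 CPM. The 4 Primary sums (5 to 8 cells) had 13647 to 45000 UMIs. The cells came from 69 plates and 6 of 12 sequencing batches.

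The label was checked on its markers after each cell had been thinned to 500 UMIs. The macrophage genes Lyz2, Csf1r and Adgre1 were detected in 83.2%, 15.8% and 11.1% of Mac Isg20 cells, against 16.2%, 0.701% and 0.467% of T cells, which should lack them. In the Thbs1 monocytes (Mon Thbs1) of the same study these shares were 90.4%, 18.8% and 8.39%, so the first 2 were higher there. Cd68 was detected in 43.3% and C1qa in 7.69% of Mac Isg20 cells, against 28.2% and 1.35% of Mon Thbs1. Mertk was near its level in T cells (0.117%), with 0.202% in Mac Isg20 and 0.721% in Mon Thbs1. Isg20 was detected in 10.1% of Mac Isg20 cells (exact binomial 95% interval 7.61% to 13.1%) and Rsad2 in 12.6% (9.76% to 15.8%). In Mon Thbs1 these shares were 13.4% (11.5% to 15.6%) and 12.7% (10.8% to 14.8%). For Mac Cd81 they were 6.36% (4.19% to 9.18%) and 4.89% (3.01% to 7.45%), and for Mreg, the Trem2-positive regulatory macrophages, 2.67% (1.39% to 4.62%) and 4.68% (2.92% to 7.06%). These intervals cover counting error in cells pooled over tissues, and no test was run. The mix of tissues also differed, with 39.1% of Mac Cd81 cells but 5.26% of Mac Isg20 cells from Primary tumors. Arg1 was detected in 11.7% of Mac Isg20 cells, against 2.89% in Mon Thbs1, 2.20% in Mac Cd81 and 6.01% in Mreg. In T cells the shares were 4.47% for Isg20 and 0.876% for Rsad2, which T cells can express themselves, and 0.497% for Arg1. Stray RNA differs between genes, with Lyz2 in 16.2% of the same T cells, so the Arg1 value is no general level of it. These T cells were also pooled over tissues, and the stray Arg1 in lesions alone was not measured. Median depths were 1744 UMIs in Mon Thbs1, 2327 in Mac Cd81, 1726 in Mreg and 996.5 in T cells.

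Detection of the label genes was also followed cell by cell. Without thinning, Isg20 was found in 92, Rsad2 in 99 and Arg1 in 98 of the 494 cells. No UMI of the 3 genes was found in 259 cells and all 3 genes in 2 cells. With detection this sparse, these 2 counts alone do not show whether the genes keep together or apart. Among the 321 cells with 1000 or more UMIs, Isg20 was found in 37.1% of the 70 Rsad2-positive cells and in 17.1% of the others. Arg1 went the other way, in 15.7% of Rsad2-positive cells against 24.7% of the others. The Rsad2-positive cells were deeper (median 2594 against 1879 UMIs). Greater depth favors detection of Isg20 in them and works against the difference in Arg1. The part of depth was not tested. The type I interferon genes together took a median of 1.13% of the UMIs of a cell, with quartiles at 0.451% and 2.40% and a highest value of 10.3%. In 12 cells no such UMI was found. The median share was 0.861% in the 73 Arg1-positive and 1.17% in the Arg1-negative cells of that depth. These shares are descriptions over cells pooled over mice, and cells are not replicates.

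The population was counted in every tissue. No Mac Isg20 cell was found among 2064 immune cells of 3 Normal lungs, which allows a share of up to 0.145%, nor among 5156 cells of 6 Relapse-free lungs (up to 0.0582%) or 1406 cells of 3 Pre-MET lungs (up to 0.213%). These limits cover counting error only. The Pre-MET lungs of mice 8, 9 and 10 held only 8, 0 and 2 macrophages of any label. All Normal and Pre-MET cells came from sequencing batches without lesions, so batch and tissue cannot be told apart for them. Distal normal tissue held 7 cells in 6 of 14 mice, a mean of 0.260% ± 0.436 (SD, n = 14). The highest of these lungs had 1.30%. In Primary tumors the share was 1.67% ± 0.222 (SD, n = 4), with 1.49% to 1.98% in the 4 tumors. Each tumor share rested on 5 to 8 cells. Exact binomial 95% intervals were far wider than this range, with 0.553% to 3.91% in mouse 8 and 0.663% to 2.99% in mouse 38. Lung lesions were far more variable. All 13 MET samples contained the cells, with a lowest value of 0.290%, a median of 5.06% and a highest of 21.6% (mean 6.19% ± 6.38 SD). In MET Core they were found in 12 of 13 samples, from 0 to 23.4% with a median of 3.86% (mean 7.47% ± 7.56 SD). MET Invasive margin samples had 0 to 4.40% and a median of 0.685% (mean 1.20% ± 1.54 SD, n = 7), so 5 of 7 borders held any.

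**Figure D1:**
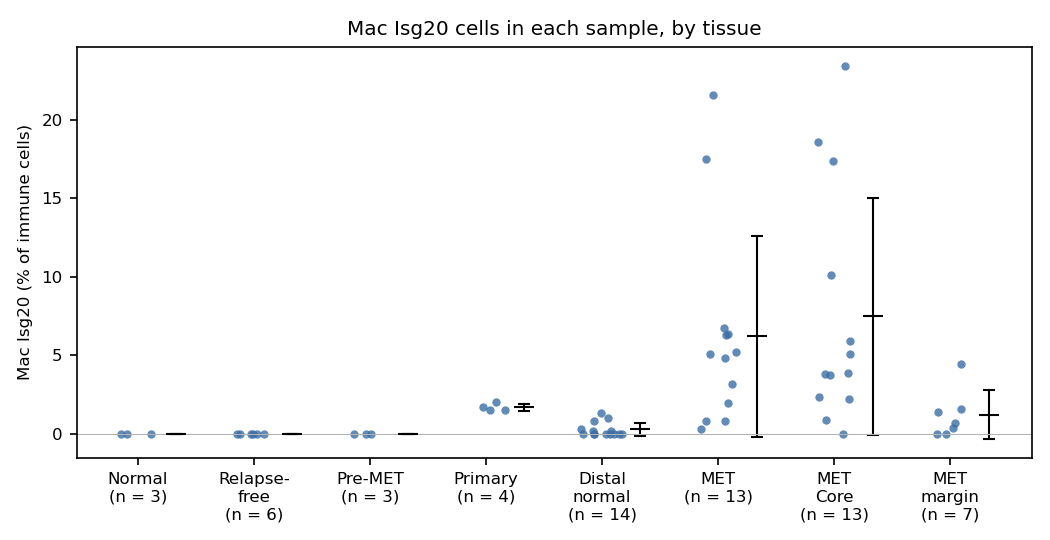
Mac Isg20 cells as a percentage of immune cells (y axis) in each sample (points), by tissue (x axis), with the mean and SD beside the points. All samples of Normal, Relapse-free and Pre-MET lungs lie at 0, the 4 Primary tumors between 1.49% and 1.98%, and MET and MET Core samples spread up to 21.6% and 23.4%.

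Within the same lungs the share was higher in MET than in Distal normal tissue in 13 of 13 mice, by 5.92 percentage points on average (exact two-sided sign-flip permutation test over mice, p = 0.000244, the smallest this design allows; adjusted p = 0.000732 over the 3 comparisons of shares). The differences ran from 0.290 points in mouse 24 to 20.6 points in mouse 23. MET Core exceeded MET Invasive margin in 5 of 6 mice, and in mouse 32 neither held a cell. The mean difference was 5.05 points (exact permutation p = 0.0625, adjusted p = 0.0938). With mouse 32 at a difference of 0, 0.0625 is the smallest p that this comparison could give, so it could not pass the threshold. Of the 12 margin plates, the 3 of mouse 17 carry a photoactivation target of NON-MET and were kept in the margin by their status label. Without mouse 17 the mean difference was 5.36 points and the margin share 1.34% ± 1.64 (SD, n = 6). It was 2.35 points without mouse 26, in which the core reached 18.6% and the border 0. MET Core and MET differed by 2.53 points, with the core higher in 7 and lower in 5 of 12 mice (exact permutation p = 0.396). Without mouse 24 the difference was 0.651 points. Mouse 24 had 23.4% in the core and 0.290% in the section, while mouse 23 had 10.1% and 21.6%. The section of mouse 24 spanned 2 sequencing batches, with 1 of 79 cells (1.27%) in the batch of the core and 0 of 266 in the other. Within batches shared by both tissues of a mouse, a choice made after the data had been seen, core and MET differed by 2.02 points (exact permutation p = 0.507, 12 mice). MET and Distal normal tissue then differed by 6.49 points, higher in 11 of 12 mice with 1 equal (exact permutation p = 0.000977). Expressed as a share of macrophages, in the 9 mice with 5 or more macrophages in both tissues, the core was higher by 18.9 points (exact permutation p = 0.0430). This p is not adjusted and belongs to an alternative setting. In mouse 24 the share rested on 30 of 44 macrophages in the core and 1 of 6 in the section. The tissues differed in their sort gates, and 3 of the batches with lesions also held Relapse-free cells (743, 148 and 591 cells), none of them Mac Isg20. The part of the gates in these shares was not tested.

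The share of Mac Isg20 was compared with that of Mon Thbs1 and Mreg across samples, 4 relations in all. In MET samples it rose with both. For Mreg, Pearson's r was 0.855 (permutation p = 0.00014, adjusted p = 0.00056) and Spearman's rho 0.820 (permutation p = 0.00092, adjusted p = 0.00184) over 13 mice. For Mon Thbs1, r was 0.726 (permutation p = 0.0131, adjusted p = 0.0262) and rho 0.852 (permutation p = 0.00048, adjusted p = 0.00184). Without mice 23 and 33, which had the highest shares, r was 0.598 for Mreg and 0.840 for Mon Thbs1. In the 6 MET samples of the largest batch, r was 0.941 for Mreg (exact permutation p = 0.0083) and 0.619 for Mon Thbs1 (exact permutation p = 0.172). In MET Core samples neither relation passed. There r was 0.370 for Mon Thbs1 (permutation p = 0.195, adjusted p = 0.260), with rho 0.566 (permutation p = 0.0465, adjusted p = 0.0620), and -0.126 for Mreg (permutation p = 0.680, adjusted p = 0.680), with rho -0.049 (permutation p = 0.877, adjusted p = 0.877). Without mice 24 and 26 the core values were 0.323 and -0.054, and in the 6 cores of the largest batch they were 0.0677 (exact permutation p = 0.874) and -0.0226 (exact permutation p = 0.960). No other batch held 6 samples. Whether MET and MET Core differ in these relations was not tested, and the shares have a common denominator.

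Mac Isg20 cells of all 15 larger sums expressed type I interferon genes, at levels that differed by a factor of 6.65 between samples. All 48 genes of the list were detected in at least 1 sum and 14 in every sum. Their summed level had a median of 17382 CPM, from 5473 CPM in MET of mouse 26 to 36367 CPM in MET of mouse 37. The core and MET values of a mouse were close in 3 of the 4 mice with both sums at 10 or more cells. Core and MET had 18346 and 18188 CPM in mouse 23, 5797 and 5473 CPM in mouse 26 and 22483 and 23996 CPM in mouse 28. Mouse 30 had 17382 and 9276 CPM. Gaps were also wide in mice 25 and 37, which had smaller sums. Mouse 37 had 7645 CPM in a core of 6 cells against 36367 CPM in MET. Mouse 25 had 30085 CPM in a core of 8 cells against 14532 CPM in 5 cells of MET.

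Among the interferon genes, the members with the highest mean level were Ifitm3, Ly6e, Ms4a4c, Cxcl10 and Ifit3. Ifitm3, a membrane protein that blocks viral entry, was present throughout, from 1507 to 4874 CPM. Cxcl10, which attracts T cells through the receptor CXCR3, was far less even. In MET it had a lowest level of 36.1 CPM, a median of 767.7 and a highest of 1831 CPM, and in MET Core the values were 0, 447.6 and 3747 CPM, the last in mouse 24. Rsad2 (chr12:26442746-26456452, minus strand, mm10) ranged from 0 to 1518 CPM in MET (median 461.6) and from 0 to 1310 CPM in MET Core (median 718.5). Both sums of mouse 26 lacked any Rsad2 UMI. Isg20 had 0 to 668.4 CPM in MET (median 262.7) and 42.6 to 492.0 CPM in MET Core (median 347.7), and its lowest value in each tissue was also that of mouse 26. The Ifna4 and Ifng genes, which encode interferons themselves, were at 0 in all 15 sums. The sensors, receptors and factors of the pathway had 1692 CPM as their summed median, and the interferon-gamma GTPases 1136 CPM.

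**Figure D2:**
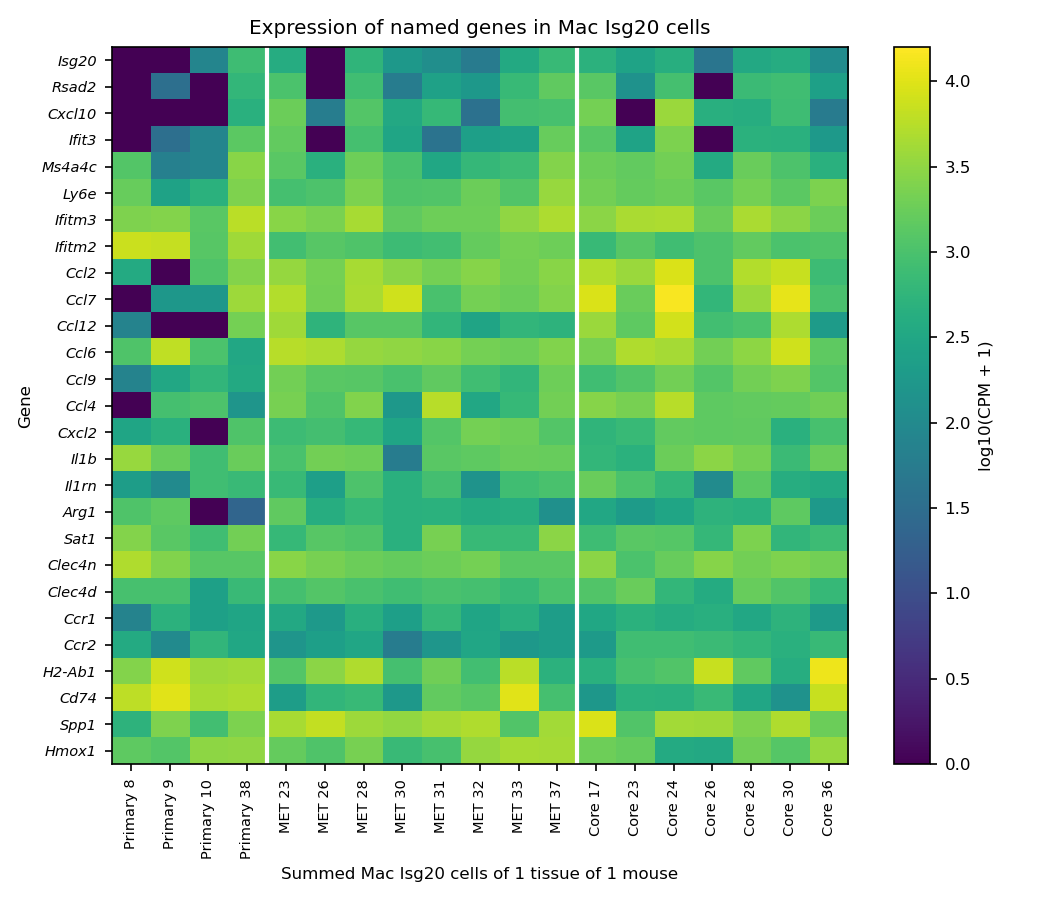
Level of named genes (rows) in the Mac Isg20 cells of 1 tissue of 1 mouse (columns), as log10 of CPM plus 1, with white lines between Primary, MET and MET Core. Rsad2 is at 0 in both columns of mouse 26, and Ccl7 and Ccl12 are low in 3 of the 4 Primary columns.

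Chemokines were a second large group. The 18 genes of the list summed to a median of 20431 CPM, from 10189 CPM in MET Core of mouse 36 to 53485 CPM in MET Core of mouse 24. Ccl2, Ccl7 and Ccl12, neighbours on chromosome 11, attract monocytes through CCR2. Ccl7 (chr11:82045712-82047525, plus strand) had 997.9 CPM as its lowest, 2397 as its median and 7943 as its highest level in MET. In MET Core these levels were 596.8, 3639 and 14192 CPM. Ccl2 had 2021, 2808 and 4508 CPM in MET and 749.2, 5169 and 9318 CPM in MET Core, and Ccl12 279.8, 588.4 and 4035 CPM against 204.3, 1416 and 8223 CPM. For all 3 genes the widest range was that of the core. Ccl6 and Ccl9, which bind CCR1, had 1430 to 7775 CPM and 585.9 to 2443 CPM over the 15 sums. The receptor genes were lower, Ccr1 at 176.5 to 630.3 CPM and Ccr2 at 58.0 to 828.97 CPM.

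The 21 inflammatory genes summed to a median of 4737 CPM, from 869.7 CPM in MET of mouse 30 to 7997 CPM in MET Core of mouse 28, a factor of 9.20. Il1b, the pro-inflammatory interleukin, had 58.0 to 2941 CPM with a median of 1680 CPM, and Il1rn, which encodes its natural antagonist, had 106.6 to 1761 CPM with a median of 682.8 CPM. The lectin receptor genes Clec4n and Clec4d (Dectin-2 and its partner) were found in every sum, at 1012 to 2905 CPM and 383.6 to 1754 CPM. Arg1 (chr10:24915221-24927484, minus strand) had a median of 411.9 CPM and reached 1521 CPM in MET of mouse 23 and 1463 CPM in MET Core of mouse 30, where every other sum was at 638.1 CPM or below. Ass1, the enzyme that rebuilds arginine, and Odc1, the first enzyme of polyamine synthesis, had medians of 21.3 and 47.4 CPM. The ferritin genes Fth1 and Ftl1, which store iron, were among the highest, at 14092 to 36570 CPM and 17375 to 51264 CPM. Hmox1, which degrades heme, had 341.0 to 4541 CPM. Reads of the ferritin genes can also fall on their many processed copies, so the split between them is uncertain.

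MHC class II genes, which serve antigen presentation to CD4+ T cells, divided the samples most. Their 7 detected members summed to a median of 2669 CPM but to 28947 CPM in MET Core of mouse 36, 19451 CPM in MET of mouse 33 and 13854 CPM in MET Core of mouse 26. The lowest sum was 941.6 CPM, in MET Core of mouse 30. Cd74, the invariant chain, accounted for part of this range, from 140.0 to 10136 CPM. The genes linked with lipid-loaded macrophages and Mreg, such as Spp1 (osteopontin) and Ctsb (a lysosomal protease), varied less, at 18138 to 44210 CPM in sum.

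Markers of other lineages were mostly low. Of 5 alveolar macrophage markers, Siglecf, Marco, Ear1 and Car4 were at 0 in all 15 sums and only Chil3 was detected (58.0 to 1079 CPM). Dendritic cell markers reached at most 31.0 CPM, with Flt3 and Siglech at 0, and T and NK cell markers at most 160.1 CPM. B cell markers reached 31.0 CPM with Ms4a1 at 0, epithelial markers 58.6 CPM and keratins of the tumor line 18.1 CPM with Krt18 and Krt14 at 0. Erythroid genes ranged from 0 to 403.5 CPM and the 5 neutrophil genes from 109.0 to 2354 CPM. S100a8 was detected in 13.97% of thinned Mac Isg20 cells and in 21.9% of T cells. UMIs of a lymphocyte receptor gene were found in 15 of the 494 cells. Monocyte markers had 1177 to 4277 CPM and macrophage markers 11450 to 31767 CPM.

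Mac Isg20 was set beside its nearest neighbours within the same samples, each with 10 or more cells. The authors had defined these populations by clustering on the same genes, so the differences describe the labels and carry no test. Ratios are mean differences of log2(CPM + 1), and where a sample is at 0 their size depends on the added 1. Genes entered at a mean of 100 CPM or more in 1 of the 2 populations. A gene that reached this level in only 1 population entered with a ratio leaning to that side. Counts and medians of such ratios are partly set by this choice, while summed levels of a list use all its genes. Beside Mon Thbs1 (15 samples), 26 of 1973 genes (1.32%) were over 2-fold higher in Mac Isg20 on average and higher in every sample, and 6 (0.304%) were lower in the same sense. With a minimum of 5 cells (23 samples) these counts were 9 and 0. Highest was Pf4, a platelet-type chemokine that macrophages also make, at 1830 against 43.3 CPM (log2 ratio 7.49 ± 3.26 SD). Ccl7 had 4582 against 331.1 CPM (4.54 ± 2.63 SD) and Cd63, a lysosomal membrane protein, 369.3 against 32.2 CPM (5.07 ± 2.83 SD). Fabp5, a fatty acid carrier, differed by 3.45 and Hmox1 by 2.77, with 1986 against 282.9 CPM. The ferritin genes Ftl1 and Fth1 differed by 1.40 and 1.21 in the same direction in all samples. Several of the other leading genes (Cd63-ps, Gm7204, Gm6407 and Gm24098) are copies or unnamed loci whose reads are uncertain.

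Plac8, a gene of circulating monocytes, was lower in Mac Isg20 than in Mon Thbs1 in 15 of 15 samples, at 683.1 against 2844 CPM (log2 ratio -2.36). Il1b was also lower in 15 of 15 samples, at 1435 against 3227 CPM (-1.51). With a minimum of 5 cells neither gene met both conditions, over 2-fold lower on average and lower in every sample. Of the 44 interferon genes measured, 2 had a mean ratio above 0, with a median of -0.79 beside -0.24 over all genes. The median ratio was 0.45 for 15 chemokines, 1.40 for 5 iron genes and 1.27 for 14 genes of the lipid and Mreg list. The summed chemokine level was higher in Mac Isg20 in 13 of 15 samples and the summed iron and hypoxia genes in 15 of 15.

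Beside Mac Cd81 (5 samples, MET of mice 26 and 31 and MET Core of mice 24, 26 and 30), 101 of 2141 genes (4.72%) were higher and 58 (2.71%) lower. With a minimum of 5 cells (17 samples) 14 were higher and 2 lower, and 8 of these 16 were among the 159. Spp1 stood at 4822 against 264.9 CPM (log2 ratio 5.87), Ccl7 at 5768 against 304.0 CPM (5.79) and Arg1 at 634.2 against 106.4 CPM (6.35). F13a1, a clotting factor of monocyte-derived cells, stood at 353.7 against 45.2 CPM (5.68). The largest reversed difference was that of Ciita, the master regulator of MHC class II, at 6.63 against 166.7 CPM (-5.93). Its level in Mac Isg20 rested on few UMIs, as 1 UMI stood for 33.2 CPM in MET Core of mouse 24. The size of this ratio therefore depends on the added 1. Of the 7 class II genes 6 were lower in every sample, H2-Ab1 at 2710 against 16204 CPM. The summed level of the 18 chemokines was higher in Mac Isg20 in 5 of 5 samples. Of the 15 measured, 7 were over 2-fold higher on average and higher in every sample. Other leading genes at few UMIs, such as Pik3c2a, Mrpl53 and Ptrhd1, are given by name only.

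Beside Mreg (9 samples), 33 of 1925 genes (1.71%) were higher and 22 (1.14%) lower. With a minimum of 5 cells, which gave 16 samples, 2 were higher and 7 lower, so the balance of directions turned with this choice. Ccl12 had 1511 against 55.4 CPM (log2 ratio 6.79 ± 3.82 SD), Ccl7 4077 against 607.3 CPM (2.75) and Ccr2 281.4 against 104.8 CPM (2.79). Of the 34 interferon list genes measured, 1 met both conditions (Ifitm3, log2 ratio 1.08), beside 1.71% of all genes. The summed level of all 48 interferon list genes was higher in Mac Isg20 in 9 of 9 samples. Higher genes outside the list included Ifitm1 at 231.1 against 19.3 CPM (4.95), Parp12 at 117.8 against 13.3 CPM (4.12) and Ifi203 at 159.4 against 27.5 CPM (4.08). The monocyte gene Plac8 (3.74) and Smox, which oxidizes spermine (3.68), pointed the same way. Lower were Gpnmb at 227.5 against 1962 CPM (-3.50), Apoe, the lipid carrier, at 2263 against 10670 CPM (-2.45), and Mgst1 and Gstm1, glutathione transferases (-3.57 and -2.32). By their means, Plac8 and Ccr2 lay between Mon Thbs1 and Mreg in Mac Isg20. Cd63 and Fabp5 did so in the opposite direction (Cd63 at 395.4 against 1174 CPM in Mreg). The means beside Mon Thbs1 came from 15 samples and those beside Mreg from 9. Other genes did not lie between. In thinned cells pooled over tissues, Spp1 was detected in 43.9% of Mac Isg20, 31.8% of Mreg and 15.3% of Mon Thbs1 cells. Fn1 was detected in 9.72% of Mac Isg20 cells, a lower share than in either. Whether Mac Isg20 lies between the others as a whole was not tested.

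**Figure D3:**
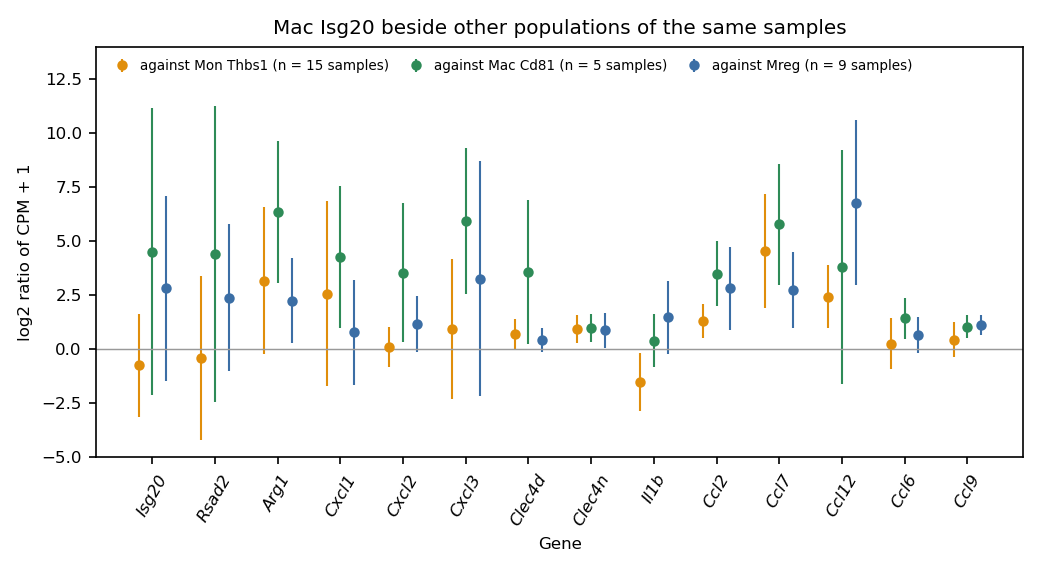
Mean log2 ratio of CPM + 1 (y axis) of Mac Isg20 over Mon Thbs1, Mac Cd81 and Mreg in the same samples, with SD bars, for genes linked with the label (x axis). Ccl7 lies above 0 beside all 3 populations, at 4.54, 5.79 and 2.75, while Il1b is below 0 only beside Mon Thbs1.

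The interferon list was followed across populations of the same sample. Its summed level was higher in Mac Isg20 than in T cells in 15 of 15 samples (medians 17382 and 5722 CPM) and than in Mreg in 9 of 9 (9645 and 5865 CPM). Against Mac Cd81 it was higher in 3 of 5 samples (medians 8574 and 7768 CPM). It was higher than in Mon Thbs1 in 2 of 15 samples (medians 17382 and 24339 CPM), MET of mouse 37 and MET Core of mouse 24, and than in the Fn1 monocytes (Mon Fn1) in 6 of 13. The order of Mac Isg20, Mon Fn1 and Mac Cd81 thus changed between samples, while T cells and Mreg were always lower.

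**Figure D4:**
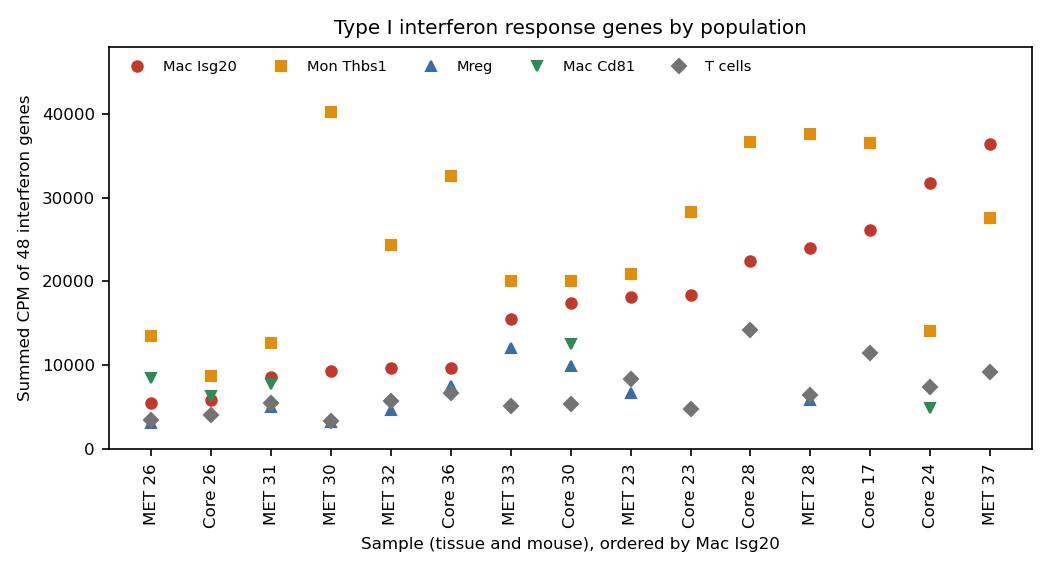
Summed CPM of the 48 type I interferon genes (y axis) in Mac Isg20 and in 4 other populations of the same sample, with samples (x axis) ordered by the level in Mac Isg20. Mac Isg20 points rise from 5473 to 36367 CPM and lie above all T cell and Mreg points of their samples, and below Mon Thbs1 in 13 of 15.

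The next question was whether Mac Isg20 cells in the light-labelled core expressed other genes than those in the whole section of a lesion. Ccr2 (chr9:124101950-124113557, plus strand), the receptor through which monocytes leave the marrow, showed the smallest p. Its level was 195.6 CPM at the lowest, 667.5 at the median and 828.97 CPM at the highest in 7 cores, and 58.0, 196.3 and 306.9 CPM in 8 MET sums. Except for the core of mouse 17, all of these cores lay above all of these MET sums. Smaller sums went both ways. The core of mouse 37 (6 cells) had 84.9 CPM against 216.8 CPM in its MET. That of mouse 25 (8 cells) had 431.8 CPM against 223.6 CPM in MET (5 cells). In the 4 mice with both sums at 10 or more cells the core was higher in 4 of 4. Mice 23, 26, 28 and 30 had 809.4 against 155.2, 724.7 against 235.4, 602.6 against 305.2 and 470.8 against 58.0 CPM. The log2 difference of 1.48 ± 0.35 (SE) did not pass (edgeR quasi-likelihood test with Benjamini-Hochberg adjustment, adjusted p = 0.244). It passed with batch as a term (1.74, adjusted p = 0.0400, edgeR) and without the core of mouse 17 (1.65, adjusted p = 0.0354, edgeR). These fits take the sums of a mouse as independent, and with mouse as a block in those 4 mice the difference was 1.78 (adjusted p = 0.693, edgeR). Over all genes, 0 of 734 (0%) were called by edgeR, 14 (1.91%) had an unadjusted p under 0.05, DESeq2 also called 0, and 0% had levels without overlap between the groups.

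Of the genes next in order, Clec7a, the beta-glucan receptor Dectin-1, had 394.5 CPM in cores and 151.2 CPM in MET (log2 difference 1.36 ± 0.40 SE, edgeR adjusted p = 0.903). Uqcr10, Marcks and Lst1 differed by 1.00, 0.80 and 0.76, and Slpi, a protease inhibitor, by -1.30 and Ifitm7 by -1.22, all with an edgeR adjusted p of 0.983. The pseudogene loci Gm15725, Gm4750 and Gm15344 differed by -0.76, -0.85 and -0.75. Of 23 interferon genes tested 18 had a difference above 0, with a median of 0.20 beside 0.003 over all genes, and none was called. For 11 chemokines 8 were above 0 (median 0.37), led by Ccl12 with 1.37 ± 0.61 (SE, edgeR adjusted p = 0.983). Of 13 lipid and Mreg genes 11 were below 0 (median -0.24), as were 4 of 4 iron genes. Isg20, Rsad2 and Arg1 differed by -0.03 ± 0.56, 0.05 ± 0.68 and -0.11 ± 0.46 (SE). The 4 mice with both tissues, fitted with mouse as a block, gave no called gene.

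**Figure D5:**
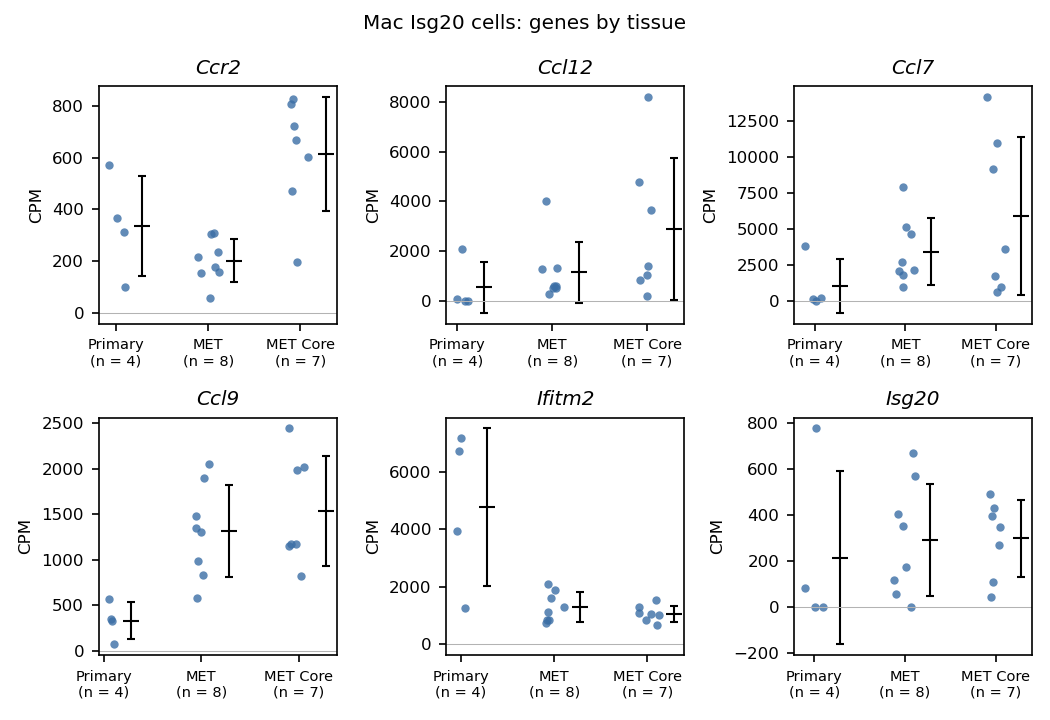
CPM (y axes) of 6 genes in the Mac Isg20 cells of each sample (points) of Primary, MET and MET Core tissue (x axes), with the mean and SD beside them, for sums of 10 or more cells in MET and MET Core and 5 or more in Primary. Ccr2 in cores spans 195.6 to 828.97 CPM with 6 of 7 above every MET sum, and Ifitm2 is at 3933 CPM or above in 3 of 4 Primary sums.

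Mac Isg20 cells of primary tumors were compared with those of MET Core in sums of 5 or more cells (4 Primary, 9 cores). The Primary cells were deeper, with a median of 3128.5 UMIs against 1306 UMIs in MET Core. Keratins of the tumor line had 199.4 CPM in Primary mouse 9 and were at 0 in the other 3 tumors and in the cores. The part of both in the differences was not tested. Ccl9 had 73.3, 332.3, 570.7 and 355.6 CPM in Primary mice 8, 9, 10 and 38, and 719.7 CPM at the lowest, with a mean of 1417 CPM, in the cores. The groups did not overlap, with a log2 difference of -1.96 ± 0.52 (SE, edgeR adjusted p = 0.215). Ccl4, an inflammatory CC chemokine, had 0, 897.2, 1060 and 155.6 CPM against 1428 CPM or more in the cores, again without overlap (-2.06 ± 0.66 SE, edgeR adjusted p = 0.279). Of 11 chemokines tested 9 were below 0, 6 of them with an unadjusted p under 0.05, and their median was -1.91 beside 0.009 over all genes. Ccl7 had 0, 166.2, 163.1 and 3844 CPM, the last value in mouse 38, which stood apart from the other Primary tumors.

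Over all genes, edgeR called 0 of 613 (0%), with 60 (9.79%) at an unadjusted p under 0.05 and 11 (1.79%) without overlap, whereas DESeq2 called 9. The latter were Ifitm2 and Cd74, higher in Primary, and Ccl9, Ccl4, Fn1, Ftl2-ps, Gm15590, Gm44805 and Mir692-2, lower. Ifitm2 (chr7:140954837-140955987, minus strand), an interferon-induced membrane protein gene beside its close relative Ifitm3, had the smallest edgeR p. Its levels in Primary were 7181, 6713, 1264 and 3933 CPM, against 143.9 CPM (a single UMI, in mouse 25) to 2081 CPM in the cores (log2 difference 2.06 ± 0.46 SE, edgeR adjusted p = 0.148). Mouse 10 lay within the range of the cores, and without it the difference was 2.36 with an edgeR adjusted p of 0.0177. Ifitm3 differed by -0.06 ± 0.43 (SE). Next in order came Flna, an actin crosslinker, with 701.1 against 165.4 CPM (1.90 ± 0.58 SE, edgeR adjusted p = 0.279), and Rbm39, a splicing factor, with 1173 against 511.1 CPM (1.29 ± 0.40 SE). Gm3788 and Gm5559 differed by 1.66 and 1.19, and the ferritin copy Ftl2-ps, Gm15590 and Mir692-2 by -1.82, -2.07 and -2.09, all loci of uncertain reads.

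The summed level of the interferon list in Primary was 6815, 3755 and 4036 CPM in Primary mice 8, 9 and 10 and 28289 CPM in mouse 38, each tumor giving a single sum. Of 21 interferon genes tested 20 had a difference below 0 (median -0.88), 1 of them, Cxcl10, with an unadjusted p under 0.05. Glycolysis genes were above 0 in 8 of 8, with a median of 0.78, and 4 had an unadjusted p under 0.05. Aldoa, an aldolase, had 2785 against 1703 CPM (0.77 ± 0.35 SE, edgeR adjusted p = 0.448). Cd74 had 6388 against 1309 CPM (2.13 ± 0.79 SE, edgeR adjusted p = 0.302), and without the core of mouse 36, the sum with the highest class II level, its edgeR adjusted p was 0.00519.

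More cells per animal were gained, after the data had been seen, by adding the MET and MET Core cells of a mouse, which gave 12 metastasis sums. Then edgeR called 10 of 1334 genes, 2 higher and 8 lower in Primary. Ifitm2 (log2 difference 1.92 ± 0.40 SE, adjusted p = 0.0314, edgeR) and Nfil3, a leucine zipper repressor (2.29 ± 0.51 SE, adjusted p = 0.0389, edgeR), were higher. Ccl9 was lower (-1.94 ± 0.47 SE, adjusted p = 0.0480, edgeR), at 333.0 against 1332 CPM. Fn1, the matrix protein fibronectin, had no UMI in Primary and a UMI in 11 of 12 mice with metastasis, with a mean of 218.7 CPM. A count of 0 allows up to 3 UMIs over the pooled Primary group, 26.5 CPM, and the metastasis mean was 8.26-fold this limit. The limit covers counting error only and not differences between tumors. The other called genes included Gm44805, Gm10053, Aurkaip1, Med10 and Cklf, all lower in Primary. Primary mice 9, 10 and 38 came from a batch without cores, and Primary mouse 8 shared its batch with the cores of mice 36 and 37. Within that batch Primary mouse 8 had 73.3 CPM of Ccl9 against 1172 and 1274 CPM, and 7181 CPM of Ifitm2 against 1090 and 2081 CPM. For the other 3 tumors, batch and tissue cannot be told apart.

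The remaining tissues held few cells. In the MET Invasive margin 18 cells summed to 10598 CPM of the interferon list (exact Poisson 95% interval 9721 to 11532, counting error only). Mouse 36 gave 394 of the 538 UMIs behind this value, and the other 13 cells had 5595 CPM (4718 to 6587). Leaving out mouse 17, whose plates carry the NON-MET target, gave 15279 CPM (13996 to 16648). In Distal normal tissue 7 cells summed to 36474 CPM (34251 to 38803), but a single cell of mouse 37 gave 889 of the 1003 UMIs. The other 6 cells had 6689 CPM (5518 to 8035), while leaving out the cell of mouse 17 instead gave 57710 CPM (54049 to 61555). Both levels thus rested on 1 or 2 mice, the mice were left out after the data had been seen, and no test was run.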

How the data were processed

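Cells were sorted by FACS, 1 per well of a 384-well plate, for 3′ SPID-seq libraries. Per the study's methods, the authors mapped reads to mm10 with HISAT, excluded reads with more than one position, counted UMIs over exons, removed cells under 500 UMIs, and named MetaCell clusters by hand. The notes of the submitters also name bcl2fastq 2.15.0.4. What the authors deposited are unnormalized UMI counts of each gene in each well, 1 file per plate, and a table with the label, mouse and tissue of each well. Erythrocyte, outlier and tumor wells were left out here. Doublets had been gated out at the sort and no doublet caller was run. No well name was shared between plates, and no 2 labelled cells held the same counts.

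Counts of Mac Isg20 wells were summed per mouse and tissue. Sums were compared with edgeR 4.0.16 (TMM, filterByExpr, quasi-likelihood test, R 4.3.3), with an adjusted p (Benjamini-Hochberg) under 0.05 as a call, and with DESeq2 1.42.0 as an alternative. The study had tested pooled cells, and sums were used because cells of 1 mouse are not replicates. Shares were compared within mice by exact sign-flip tests. The scripts were tested on simulated counts. The members, gene lists and tests were chosen with earlier results of these data known. One list holds the genes that the study linked with these cells and is not independent evidence. Named genes were the label genes, the 5 highest members of each list, up to 8 genes each way beside another population, and up to 5 each way with the smallest p where none was called. Others were named after their values were seen. Mice with both tissues pair them by animal, and the deviations of a mouse's 2 tissues correlated at 0.0712, 0.494, 0.285 and 0.447 in mice 23, 26, 28 and 30, against a mean of -0.0255 for other pairs. Promoters came from RefSeq (GRCm38.p6) and gene positions from GENCODE (mm10). Results for a few genes are not reported here.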

Additional observations from a re-analysis of the deposited data

Results flagged for a closer look

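Of 99 groups of sample values looked at, 15 held a sample farther from the others than expected at the 95% level of Dixon's gap ratio. Chance gives about 1 in 20 there only for independent and normally distributed values. These groups share samples and genes, and the Relapse-free shares, all at 0, could flag no sample, so the 15 cannot be set against that rate. The Primary tumor of mouse 38 accounted for 7 of the 15. Its summed interferon level was 28289 CPM (next 6815), its complement level 11356 CPM (next 2924), Isg20 777.8 CPM (next 81.5), Rsad2 600.0 CPM (next 33.2), Cxcl10 466.7 CPM (others 0), Ccl7 3844 CPM (next 166.2) and Ccl12 2067 CPM (next 73.3). This sum held 8 cells and 45000 UMIs. Levels in MET and in MET Core were each compared only among sums of 10 or more cells. MET of mouse 23 stood out in Arg1 (1521 CPM, next 638.1) and Ccl12 (4035 CPM, next 1304), and MET Core of mouse 30 in Arg1 (1463 CPM, next 511.5). The class II level of MET of mouse 33 was 19451 CPM (next 8073). MET of mouse 30 had the lowest inflammatory level, 869.7 CPM (next 3818). Among the MET Core sums of that size, mouse 36 had the highest level of interferon receptors and sensors, 2697 CPM (next 1757). Mouse 26 had the lowest cell cycle level among the same sums, 127.9 CPM (next 225.3). The MET Invasive margin of mouse 33 held 4.40% Mac Isg20 cells (next 1.58%). The causes were not tested.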

How the results depend on the processing

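The main values of the comparisons kept their result in 87 of 101 recomputations. For shares and relations this means the same call and direction, and for counts of genes an equal or similar count. The paired recomputations of core against margin are among the 101 and could not pass the threshold, so their call was fixed in advance. No tested difference reversed, while the balance of higher and lower genes beside Mreg did. The core against margin difference without pairing by mouse (no replicate block) was 6.27 points over 20 samples (permutation p = 0.00761). That test takes 13 core and 7 margin samples as independent, although 6 mice gave both. It also adds cores of mice without a margin sample, so the sets of mice differ. Core against MET as a share of macrophages was 18.9 points (exact permutation p = 0.0430, not adjusted, 9 mice). Leaving out 1 mouse gave 4.70 to 6.39 points for MET against Distal normal tissue, 2.35 to 6.06 for core against margin and 0.651 to 3.798 for core against MET. For core against MET expression, edgeR called 1 gene without the filter on low counts (Inhba), 1 with batch as a term (Ccr2) and 0 to 1 with each of the 15 sums left out, so that a mouse with both tissues stayed in through the other (Ccr2 without core mouse 17). The fit with mouse as replicate block, on 4 mice, called 0 and changed no other call. For Primary against MET Core, DESeq2 called 9 genes, edgeR without the filter 3, and edgeR with each sum left out 0 to 2: Cd74 without core 36, Ccl3 and Ifitm2 without Primary 10, and Cyb5a and Ccl7 without Primary 38. Summing MET and MET Core cells per mouse, chosen after seeing the data, gave 10. The cause was not tested; the settings differ in the genes tested and the samples. With a minimum of 5 cells, counts beside other populations fell from 32 to 9 (Mon Thbs1, 9 higher and 0 lower), from 159 to 16 (Mac Cd81, 14 and 2) and from 55 to 9 (Mreg, 2 and 7), of which 9, 8 and 7 were shared. Samples, genes tested and mean ratios all differ there, and the cause was not tested. Of 430 recomputations for named genes 418 gave the same call and 12 passed where the reported fit did not. Depth limits genes near 1 UMI, which stands for up to 67.4 CPM in sums of 10 or more cells, 73.3 CPM in Primary, 143.9 CPM in cores of 5 or more cells and 223.6 CPM in MET of mouse 25, used only with a minimum of 5 cells.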

Other observations

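The summed interferon level of Mac Isg20 was set beside that of other populations across mice, after the values had been seen (3 relations, means of the tissues of a mouse). With T cells, Pearson's r was 0.733 (permutation p = 0.0111, adjusted p = 0.0333) and Spearman's rho 0.764 (permutation p = 0.00885, adjusted p = 0.0266) over 11 mice, and r was 0.859 without mice 37 and 24. With Mon Thbs1, r was 0.289 (permutation p = 0.382, adjusted p = 0.475) and rho 0.464 (permutation p = 0.155, adjusted p = 0.155), and r was 0.731 without the same mice. With Mon Fn1 in 10 mice, r was 0.259 (permutation p = 0.475, adjusted p = 0.475) and rho 0.552 (permutation p = 0.104, adjusted p = 0.155), and r was 0.630 without them. Batches held too few of these mice for values of their own. Mouse 26 had the lowest level in Mac Isg20 (5635 CPM), Mon Thbs1 (11064 CPM) and T cells (3709 CPM). Mice 24 and 37 had the highest in Mac Isg20 (31766 and 36367 CPM) but 14027 and 27582 CPM in Mon Thbs1. Mouse 37 entered by its MET sum alone, and its core of 6 cells had 7645 CPM in Mac Isg20.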
